A study of Mus musculus with 14 samples.

Results

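The genes described here encode activin and inhibin subunits (Inha, Inhba, Inhbb), follistatin and its relatives (Fst, Fstl3, Fstl1) and receptors that activins bind (Acvr1, Acvr1b, Acvr2a, Acvr2b). They were chosen by gene symbol, and all 10 were found among the 31274 symbols of a table of FPKM values, a measure of transcript abundance corrected for transcript length and library size. Inhbb and Fst were already known to differ between the genotypes at diestrus in these libraries. That comparison is therefore given as a description with no test for all 10 genes, as are the cycle changes of Inhbb and Fst, which share the diestrus libraries with it. The other cycle changes and the comparison of the genotypes at estrus were tested.

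The mice were FVB/N, intact and untreated, and whole uteri were taken for RNA sequencing at 2 months of age. There were 3 libraries of HIF2A cKO uteri at estrus, 3 of WT uteri at estrus, 4 of HIF2A cKO uteri at diestrus and 4 of WT uteri at diestrus. HIF2A cKO denotes a conditional knockout of HIF2A, which is the Epas1 product and a transcription factor stabilised at low oxygen, and the labels name neither the Cre line nor the deleted exons. Estrus follows the estrogen rise before ovulation, and diestrus is the phase in which luteal progesterone dominates.

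Activins are dimers of inhibin beta subunits, and inhibins pair an alpha subunit with a beta subunit and oppose activins. Activins bind type II receptors, which recruit a type I receptor such as ACVR1B and activate SMAD2 and SMAD3, and follistatin binds activins outside the cell and blocks receptor access. In the mouse uterus follistatin is needed for normal embryo receptivity, and activin signalling is linked to decidualization of the stroma.

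Some facts of the whole series bear on these genes. Epas1 stood at 38.0 to 45.7 FPKM in HIF2A cKO uteri and 31.2 to 34.2 in WT uteri at estrus, and at 35.1 to 45.4 in HIF2A cKO uteri and 31.2 to 43.5 in WT uteri at diestrus. Epas1 FPKM thus gave no fall in HIF2A cKO uteri, so the genotypes are those of the labels, without support from this gene's total level. The diestrus libraries numbered 3 stood apart in both genotypes, with the lowest mean correlation with their own group (0.960 in HIF2A cKO, 0.964 in WT, against 0.973 to 0.979 in the other diestrus libraries). Rn45s, a ribosomal RNA precursor, stood at 819, 238 and 242 FPKM in HIF2A cKO and 280, 236 and 208 in WT uteri at estrus, and at 223, 228, 237 and 1890 in HIF2A cKO and 533, 578, 456.5 and 467 in WT uteri at diestrus. It was thus higher at diestrus than at estrus in WT uteri, with no overlap, and its part in the results was not tested. The 9 ovarian markers examined were each listed under 1 FPKM in all 14 libraries, and the ovary is a main source of Inha and Inhba. The granulosa genes Fshr and Cyp19a1 were listed at 0 throughout both estrus groups. A listed 0 is weak evidence in this table, since widely expressed genes such as Eef1a1, Col1a1 and Col3a1 were also listed at 0 throughout at least 1 group. The oviduct markers Ovgp1 and Pax8 summed to 16.7 to 21.5 FPKM in HIF2A cKO and 19.3 to 22.6 in WT uteri at estrus, and to 14.1 to 23.5 in HIF2A cKO and 11.7 to 22.6 in WT uteri at diestrus. Ovgp1 was under 1 FPKM in all WT estrus libraries, so the sum there was mostly Pax8. Markers of uterine epithelium, stroma and myometrium were present in every group.

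The proximal promoters of 2 genes are shown, since Inhbb had the largest log2 difference between the genotypes and Fstl3 was the member past the threshold between the genotypes at estrus. Each is the 250 bases before the transcription start, 5′ to 3′ on the gene's strand, from RefSeq on GRCm38.p6, with a match to the core of the hypoxia response element, the DNA site of HIF dimers, in capitals.
Inhbb, chr1:119422249-119422498, minus strand: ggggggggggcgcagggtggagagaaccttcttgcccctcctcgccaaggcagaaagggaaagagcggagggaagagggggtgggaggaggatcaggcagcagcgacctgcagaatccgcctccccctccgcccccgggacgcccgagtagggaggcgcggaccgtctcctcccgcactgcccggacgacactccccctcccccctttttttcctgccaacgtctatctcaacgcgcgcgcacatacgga
Fstl3, chr10:79777024-79777273, plus strand: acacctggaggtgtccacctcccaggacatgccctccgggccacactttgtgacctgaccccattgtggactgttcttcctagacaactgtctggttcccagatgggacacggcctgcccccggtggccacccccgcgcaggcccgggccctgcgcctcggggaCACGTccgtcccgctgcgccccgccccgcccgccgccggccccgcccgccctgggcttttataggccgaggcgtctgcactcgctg

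Both strands were searched for the hypoxia response element core (ACGTG or GCGTG), the SMAD palindrome GTCTAGAC, the estrogen response element (GGTCA and TGACC, 3 bases apart) and the progesterone response element (GNACA and TGTNC, 3 bases apart). Fstl3 held ACGTG on the minus strand at bases -86 to -82 from the start, and 16.6% of 32851 promoter windows of this length hold it. The window of Inhbb held none of these letters. The core in either form was present in 38.6% of all windows, and the SMAD, estrogen and progesterone motifs in 0.167%, 0.0639% and 0.387%. Of the 10 genes 9 had a promoter entry, and Fst had none, so its promoter could not be searched.

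Inhbb (chromosome 1, 119415465 to 119422248, minus strand, mm10) encodes the beta B subunit of activin B and inhibin B. In order of replicate number, it stood at 204, 211, 60.2 and 133 FPKM in HIF2A cKO uteri at diestrus, against 12.8, 47.2, 6.89 and 5.50 in WT uteri at diestrus. The groups did not overlap, and the lowest HIF2A cKO library was the one numbered 3 while the highest WT library was the one numbered 2. The log2 difference, here and below in log2(FPKM + 1), was 3.34. It was 3.46 without both libraries numbered 3, and ran from 2.98 to 3.95 with each library left out, the highest without WT diestrus replicate 2. In each same-number pair the HIF2A cKO library was the higher, which follows from the lack of overlap and adds nothing to it. At estrus the spread was far narrower, with 49.8, 39.2 and 37.8 FPKM in HIF2A cKO uteri and 28.2, 22.0 and 27.4 in WT uteri. These groups did not overlap either. The difference of 0.69 (95% interval -0.66 to 2.03) did not pass in limma with Benjamini-Hochberg adjustment (adjusted p = 0.902) in a fit that shares 1 estimate of the spread with the diestrus libraries. It passed when the estrus libraries were fitted alone (adjusted p = 0.0472), and the adjusted p ran from 0.0472 to 1.0 over the settings tried.

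Over the cycle, in HIF2A cKO uteri all estrus values lay below all diestrus values, with means of 42.3 ± 6.54 FPKM (SD, n = 3) at estrus and 152 ± 70.7 (n = 4) at diestrus, a log2 difference of -1.68. In WT uteri the estrus mean was 25.9 ± 3.35 FPKM (n = 3) and the diestrus mean 18.1 ± 19.7 (n = 4), a log2 difference of 0.98, and the estrus values lay inside the diestrus range. This value was 1.58 without WT diestrus replicate 2 and 0.62 without WT diestrus replicate 4. Whether the cycle difference itself differs between the genotypes was not tested for any of the 10 genes, since that contrast holds the diestrus genotype difference.

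Inhba (chromosome 13, 16011851 to 16031621, plus strand) encodes the beta A subunit and was low throughout. It stood at 0.415, 0.897 and 0.871 FPKM in HIF2A cKO uteri and 1.43, 1.88 and 1.43 in WT uteri at estrus. At diestrus it stood at 3.01, 2.38, 1.25 and 2.09 in HIF2A cKO uteri and 1.80, 1.54, 0.563 and 1.09 in WT uteri. The HIF2A cKO libraries were thus all below WT at estrus, whereas at diestrus the groups overlapped with the HIF2A cKO mean the higher (2.18 against 1.25). In HIF2A cKO uteri Inhba fell at estrus relative to diestrus (log2 difference -0.86, SE 0.216, adjusted p = 0.00376 in limma), a level 3.00-fold lower. In WT uteri the stages overlapped, and the difference of 0.23 (95% interval -0.24 to 0.70) did not pass (adjusted p = 0.387). The genotype difference at estrus, -0.59 (95% interval -1.09 to -0.09), did not pass over all genes (adjusted p = 0.592), and passed with library weights (adjusted p = 0.0195). That setting called 756 of all genes higher and 575 lower at estrus, against 10 and 5 in the main fit.

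Inha (chromosome 1, 75507077 to 75510366, plus strand), the alpha subunit that turns a beta subunit into inhibin, stood at 3.38, 3.96 and 3.73 FPKM in HIF2A cKO uteri and 3.68, 3.52 and 2.84 in WT uteri at estrus. Diestrus values were 2.84, 2.52, 2.79 and 1.65 in HIF2A cKO uteri and 4.54, 2.65, 4.18 and 3.51 in WT uteri. The genotypes overlapped in both stages. Inha rose at estrus in HIF2A cKO uteri, where the stages did not overlap (0.46, SE 0.156, adjusted p = 0.0216 in limma). It no longer passed when HIF2A cKO diestrus replicate 4 (adjusted p = 0.0571) or HIF2A cKO estrus replicate 2 (0.0727) or 4 (0.0564) was left out. In WT uteri the difference was -0.11 (95% interval -0.44 to 0.23, adjusted p = 0.581). The genotype difference at estrus was 0.11 (95% interval -0.25 to 0.48, adjusted p = 0.954).

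**Figure D1:**
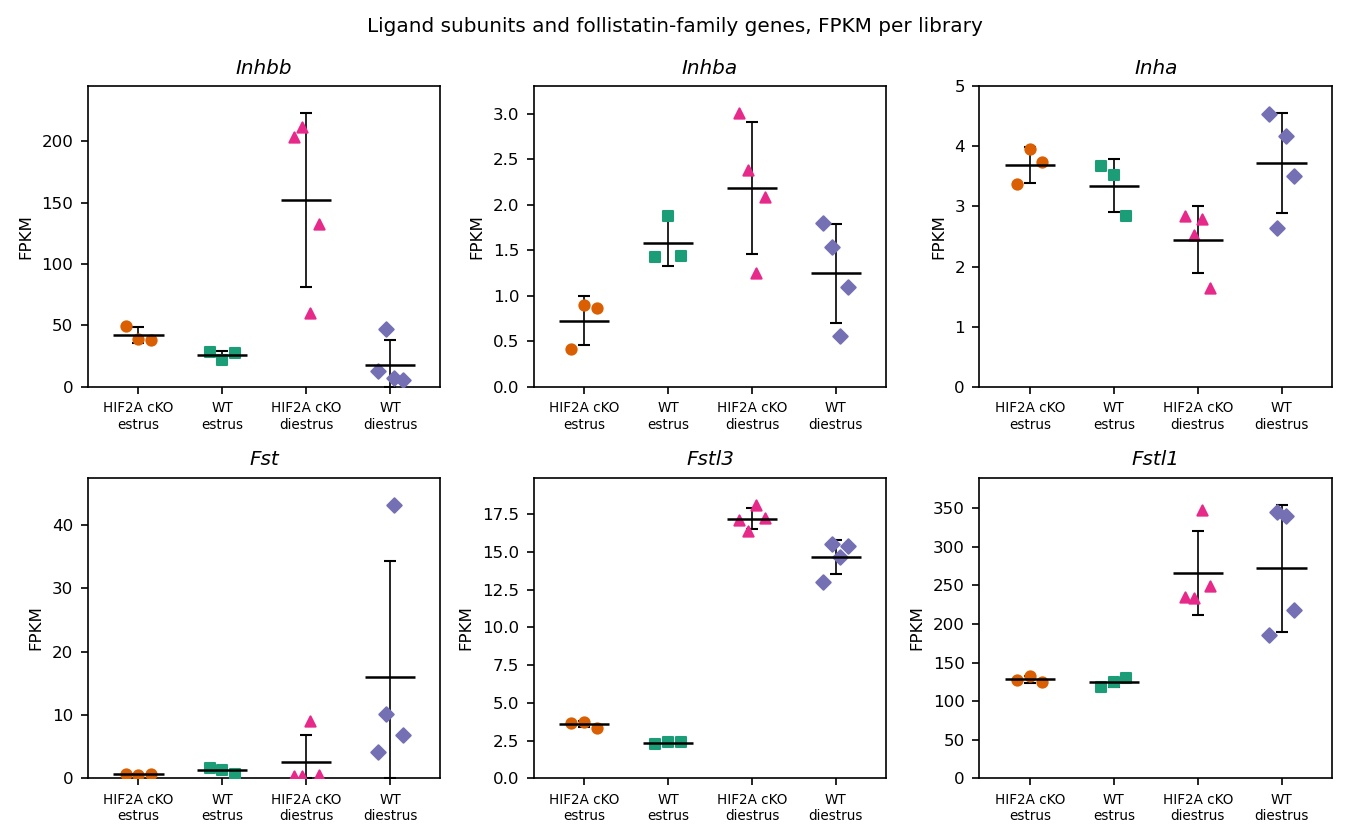
FPKM of the 3 ligand subunit genes (top) and the 3 follistatin-family genes (bottom) in each of the 14 libraries, with points for libraries in order of replicate number, horizontal lines for group means and bars for 1 SD, cut at 0. Inhbb is highest in HIF2A cKO uteri at diestrus (60.2 to 211 FPKM), Fst in WT uteri at diestrus (4.13 to 43.2), and Fstl3 and Fstl1 are higher at diestrus than at estrus in both genotypes.

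Fst (chromosome 13, 114452290 to 114458951, minus strand) encodes follistatin, the high-affinity activin antagonist. At diestrus it stood at 0.365, 0.375, 9.07 and 0.448 FPKM in HIF2A cKO uteri and 4.13, 10.1, 43.2 and 6.84 in WT uteri. In each genotype the library numbered 3 was the highest. The HIF2A cKO library numbered 3 lay inside the WT range, so the groups overlapped, while the other 3 HIF2A cKO libraries lay below every WT library. The log2 difference was -2.37. It was -1.74 without WT diestrus replicate 3, -3.09 without HIF2A cKO diestrus replicate 3 and -2.45 without both. At estrus Fst was low in both genotypes, with 0.665, 0.542 and 0.735 FPKM in HIF2A cKO uteri and 1.70, 1.28 and 0.730 in WT uteri. The groups overlapped, and the difference of -0.42 (95% interval -2.13 to 1.29) did not pass in limma (adjusted p = 0.969).

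In WT uteri all estrus values of Fst lay below all diestrus values, with means of 1.24 ± 0.486 FPKM (SD, n = 3) at estrus and 16.1 ± 18.2 (n = 4) at diestrus and a log2 difference of -2.43, which was -1.80 without WT diestrus replicate 3. In HIF2A cKO uteri the means were 0.647 ± 0.0977 (n = 3) at estrus and 2.57 ± 4.34 (n = 4) at diestrus, a log2 difference of -0.48 whose sign 1 library decided. Without HIF2A cKO diestrus replicate 3 it was 0.24, since the other 3 diestrus libraries lay below all 3 estrus libraries.

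Inhbb and Fst thus differed between the genotypes in opposite directions at diestrus, and the plot of the pair shows this library by library. The ratio of summed beta subunits (Inhba + Inhbb) to Fst, in FPKM, was 75.5, 74.0 and 52.7 in HIF2A cKO uteri and 17.4, 18.7 and 39.5 in WT uteri at estrus. At diestrus it was 566, 570, 6.77 and 301 in HIF2A cKO uteri and 3.53, 4.84, 0.173 and 0.965 in WT uteri. In both stages every HIF2A cKO library had a higher ratio than every WT library, also the one numbered 3. The ratio is given as a description. At diestrus its direction was largely fixed in advance, since Inhbb and Fst were already known to differ there. Its denominator was also low, with Fst at 0.542 to 0.735 FPKM in HIF2A cKO uteri at estrus. In HIF2A cKO diestrus libraries 1, 2 and 4 Fst was at 0.365 to 0.448 FPKM, so the high ratios are imprecise.

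**Figure D2:**
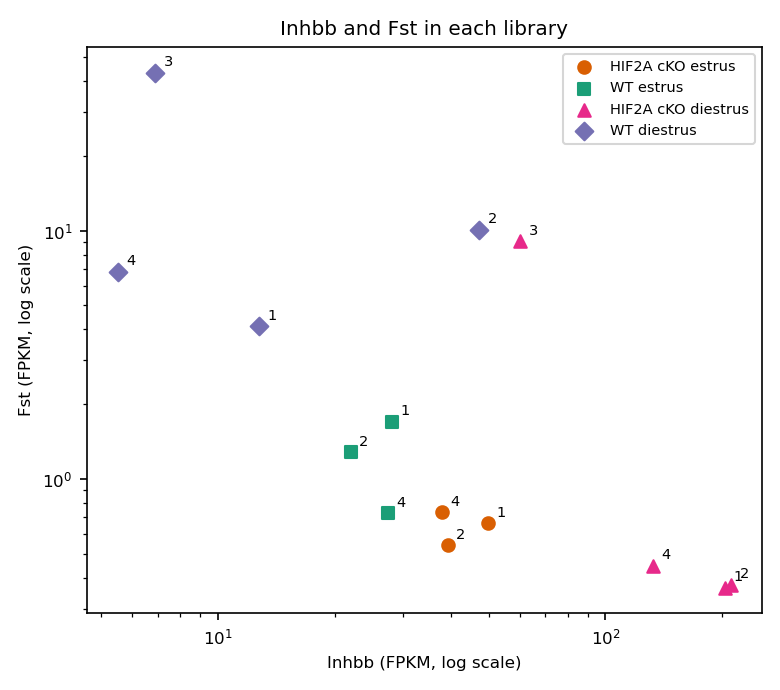
Fst against Inhbb in FPKM, both on log scales, with 1 symbol for each library, labelled with its replicate number. HIF2A cKO diestrus libraries 1, 2 and 4 sit at the lower right (133 to 211 FPKM Inhbb, 0.365 to 0.448 FPKM Fst), and WT diestrus libraries 1, 3 and 4 toward the upper left. WT diestrus library 2 (47.2 FPKM Inhbb) lies to the right of these, beside the HIF2A cKO diestrus library numbered 3 (60.2 FPKM Inhbb).

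Fstl3 (chromosome 10, 79777272 to 79782630, plus strand) encodes a follistatin relative that also binds activins. At estrus it stood at 3.69, 3.71 and 3.36 FPKM in HIF2A cKO uteri and 2.29, 2.39 and 2.39 in WT uteri. Diestrus values were 17.1, 16.4, 18.1 and 17.3 in HIF2A cKO uteri and 13.0, 15.5, 14.7 and 15.4 in WT uteri. The spread within groups was small, and in each stage every HIF2A cKO library lay above every WT library. Fstl3 fell at estrus in both genotypes, to a level 4.80-fold lower in HIF2A cKO uteri (log2 difference -1.99, SE 0.0676, adjusted p = 7.99e-10 in limma) and 6.23-fold lower in WT uteri (-2.22, SE 0.0676, adjusted p = 1.71e-09). Unlike Fst, its diestrus libraries numbered 3 lay close to the others of their group.

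At estrus Fstl3 was 1.52-fold higher in HIF2A cKO uteri (log2 difference 0.45, SE 0.0723, 95% interval 0.29 to 0.61, adjusted p = 0.0373 in limma), the 1 call among the 10 genes, in a comparison where 0.0700% of genes were called higher, 0.0350% lower and 0.105% in either direction. The call was lost without any 1 of the 6 estrus libraries (adjusted p from 0.142 to 0.347) and without WT diestrus replicate 4 (0.0594) or HIF2A cKO diestrus replicates 1 (0.0724) or 2 (0.0569), while the log2 difference stayed between 0.43 and 0.59 over the settings tried. The summed level of the 5 uterine gland markers also did not overlap between these groups, at 1.47 to 1.80 FPKM in HIF2A cKO and 3.92 to 4.66 in WT uteri. These sums are near the floor, with 5 markers under 1 FPKM in all HIF2A cKO libraries and 4 in all WT libraries. Epithelial (1293 to 1435 against 1017 to 1236), stromal (1631 to 1703 against 1385 to 1538) and myometrial sums (4090 to 4357 against 3488 to 4033) did not overlap either. All of these were higher in HIF2A cKO uteri, while endothelial and leukocyte sums overlapped. None of the markers that could be tested passed at estrus, and their part in the result was not tested. At diestrus the Fstl3 means were 17.2 ± 0.709 FPKM in HIF2A cKO uteri and 14.7 ± 1.14 in WT uteri (SD, n = 4 each), a log2 difference of 0.22.

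Fstl1 (chromosome 16, 37776873 to 37836514, plus strand) encodes a more distant follistatin relative, a secreted glycoprotein made by stromal cells. It had the highest FPKM of the 10 genes in every group. It stood at 127, 133 and 125 FPKM in HIF2A cKO uteri and 118, 125 and 130 in WT uteri at estrus. At diestrus it stood at 235, 234, 347 and 250 in HIF2A cKO uteri and 186, 345, 339 and 218 in WT uteri. The genotypes overlapped in both stages, and the stages did not overlap in either genotype. Fstl1 fell at estrus to a level 2.08-fold lower in HIF2A cKO uteri (-1.03, SE 0.203, adjusted p = 0.000724 in limma) and 2.19-fold lower in WT uteri (-1.08, SE 0.203, adjusted p = 0.000687). The genotype difference at estrus was 0.05 (95% interval -0.42 to 0.52, adjusted p = 0.992).

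Acvr1b (chromosome 15, 101174067 to 101213684, plus strand) encodes a type I receptor through which activins signal. It stood at 20.1, 19.7 and 16.8 FPKM in HIF2A cKO uteri and 17.1, 15.5 and 17.6 in WT uteri at estrus. Diestrus values were 11.7, 10.8, 10.5 and 8.56 in HIF2A cKO uteri and 8.26, 9.15, 9.55 and 8.26 in WT uteri. All estrus libraries lay above all diestrus libraries, and the genotypes overlapped in both stages. Acvr1b rose at estrus, 1.81-fold in HIF2A cKO uteri (0.80, SE 0.0989, adjusted p = 1.87e-05 in limma) and 1.90-fold in WT uteri (0.86, SE 0.0989, adjusted p = 1.94e-05).

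Of the type II receptors, Acvr2b rose at estrus and Acvr2a did not pass. Acvr2b (chromosome 9, 119402118 to 119434995, plus strand) stood at 2.67, 2.06 and 2.19 FPKM in HIF2A cKO uteri and 2.66, 2.56 and 2.29 in WT uteri at estrus. At diestrus it stood at 1.41, 1.43, 1.77 and 1.26 in HIF2A cKO uteri and 1.52, 1.27, 1.36 and 1.54 in WT uteri. The stages did not overlap in either genotype, with changes of 0.42 in HIF2A cKO uteri (SE 0.0943, adjusted p = 0.00183 in limma) and 0.53 in WT uteri (SE 0.0943, adjusted p = 0.000428). Acvr2a (chromosome 2, 48814109 to 48903269, plus strand) was several times more abundant per length and nearly level, at 7.91 to 8.51 FPKM in HIF2A cKO and 8.32 to 8.54 in WT uteri at estrus, and 6.75 to 8.07 in HIF2A cKO and 7.92 to 8.58 in WT uteri at diestrus. Its cycle differences were 0.13 in HIF2A cKO uteri (95% interval -0.001 to 0.267, adjusted p = 0.079) and 0.05 in WT uteri (95% interval -0.083 to 0.185, adjusted p = 0.499). The HIF2A cKO difference passed without HIF2A cKO diestrus replicate 4 (0.17, adjusted p = 0.0211), without the 2 libraries with the most Rn45s (0.18, 0.0479), with median-of-ratios scaling (0.20, 0.0172) and with library weights (0.18, 0.00404). Acvr2a overlaps the oppositely oriented Orc4 (8.60 to 16.5 FPKM), and reads of the pair cannot be told apart without strand.

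Acvr1 (chromosome 2, 58388644 to 58567157, minus strand), a type I receptor that mainly carries BMP signals and can bind activins without passing on their signal, stood at 12.6 to 13.6 FPKM in HIF2A cKO and 12.4 to 12.9 in WT uteri at estrus. Diestrus values were 12.1 to 13.3 in HIF2A cKO uteri and 10.3 to 11.8 in WT uteri, and these groups did not overlap (log2 difference 0.17). Acvr1 rose at estrus in WT uteri by a small step (0.18, SE 0.0613, adjusted p = 0.0241 in limma). The call was lost without WT diestrus replicates 2 (adjusted p = 0.063) or 3 (0.0574) and without WT estrus replicates 2 (0.0686) or 4 (0.074). It was lost as well in the WT libraries fitted alone (0.0563), there with a replicate block (0.163), and without the diestrus libraries numbered 3 (0.0502). In HIF2A cKO uteri the difference was 0.05 (95% interval -0.09 to 0.18, adjusted p = 0.534). Between the genotypes at estrus none of the 4 receptors passed, with differences of 0.16 for Acvr1b (95% interval -0.07 to 0.39), 0.04 for Acvr1 (-0.10 to 0.18), -0.04 for Acvr2a (-0.185 to 0.102) and -0.09 for Acvr2b (-0.31 to 0.13).

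**Figure D3:**
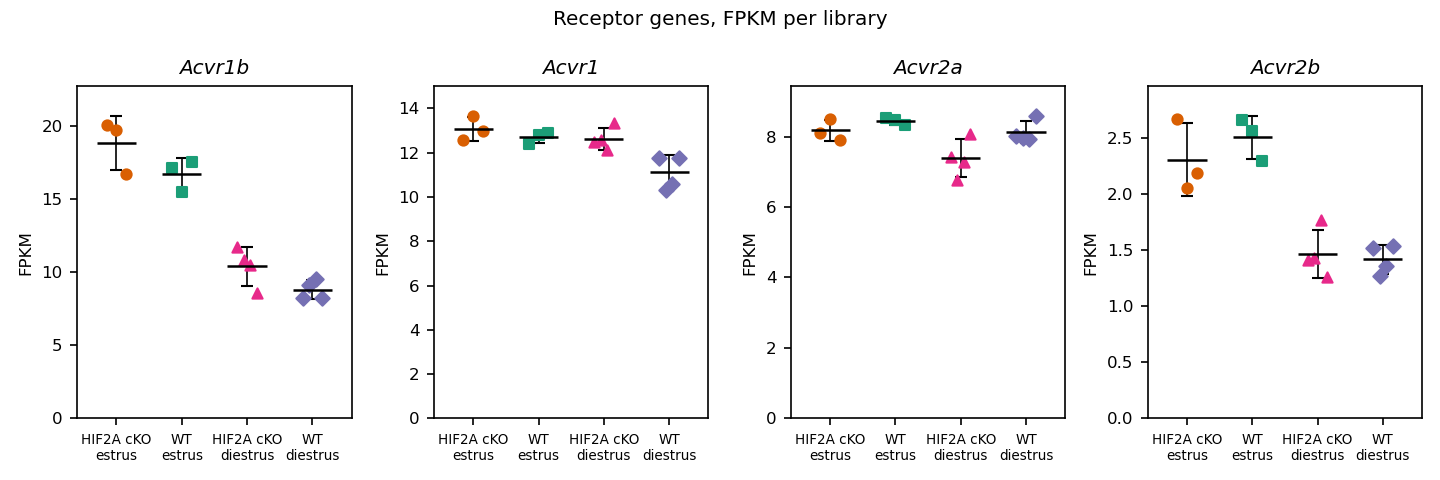
FPKM of the 4 receptor genes in each of the 14 libraries, with points for libraries, horizontal lines for group means and bars for 1 SD. Acvr1b and Acvr2b lie higher at estrus than at diestrus in both genotypes, while Acvr2a stays between 6.75 and 8.58 FPKM.

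Over the 8 genes tested in the cycle, 3 rose and 3 fell at estrus in HIF2A cKO uteri (Inha, Acvr1b and Acvr2b against Inhba, Fstl3 and Fstl1), where 25.5% of all genes rose and 36.5% fell. In WT uteri 3 rose and 2 fell (Acvr1b, Acvr2b and Acvr1 against Fstl3 and Fstl1), where 23.0% of all genes rose and 34.1% fell. The median log2 change over these 8 was 0.09 in HIF2A cKO and 0.12 in WT uteri, beside -0.08 and -0.09 over all genes tested. Acvr1b and Acvr2b rose and Fstl3 and Fstl1 fell in each genotype. The 2 genotypes share no libraries, but both tests came from the same fit with a shared estimate of the spread. The tests are thus not independent, and the share of all genes called alike in both genotypes is not given here. In either direction 62.0% of all genes were called in HIF2A cKO and 57.2% in WT uteri. Between the genotypes at estrus, the median over the 10 genes was 0.04, beside 0.01 over all genes.

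Cell type markers moved between the stages as well. Markers of uterine epithelium summed to 1293 to 1435 FPKM in HIF2A cKO and 1017 to 1236 in WT uteri at estrus, against 526 to 977 in HIF2A cKO and 449 to 634 in WT uteri at diestrus. Of these 8 markers 6 rose in HIF2A cKO and 7 in WT uteri, and none fell. Of 6 stromal markers 4 fell and 1 rose in HIF2A cKO uteri, and 5 fell and none rose in WT uteri. The summed stromal level was 1631 to 1703 FPKM in HIF2A cKO and 1385 to 1538 in WT uteri at estrus, and 1253 to 1824 in HIF2A cKO and 1470 to 1767 in WT uteri at diestrus. Leukocyte markers rose in 3 of 4 cases in each genotype, summing to 182 to 224 in HIF2A cKO and 157 to 197 in WT uteri at estrus, against 48.9 to 77.6 in HIF2A cKO and 76.2 to 94.8 in WT uteri at diestrus. Of 5 endothelial markers 2 fell in HIF2A cKO and 3 in WT uteri, with sums of 99.9 to 115 in HIF2A cKO and 94.2 to 111 in WT uteri at estrus, and 118 to 176 in HIF2A cKO and 112 to 215 in WT uteri at diestrus. Of 6 myometrial markers 3 fell and 1 rose in each genotype, and they summed to 4090 to 4357 in HIF2A cKO and 3488 to 4033 in WT uteri at estrus, and 3861 to 6023 in HIF2A cKO and 3755 to 4763 in WT uteri at diestrus. Of 5 uterine gland markers 2 could be tested, and both fell at estrus in each genotype. At diestrus both were lower in HIF2A cKO uteri, where all 5 summed to 1.99 to 24.9 FPKM, against 15.2 to 74.4 in WT uteri. Between the genotypes at diestrus 1 stromal marker was higher and 2 lower in HIF2A cKO uteri, and 1 epithelial and 1 endothelial marker were higher. Their part in the results was not tested, and in whole uterus fewer cells of a type and less RNA per cell cannot be told apart.

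**Figure D4:**
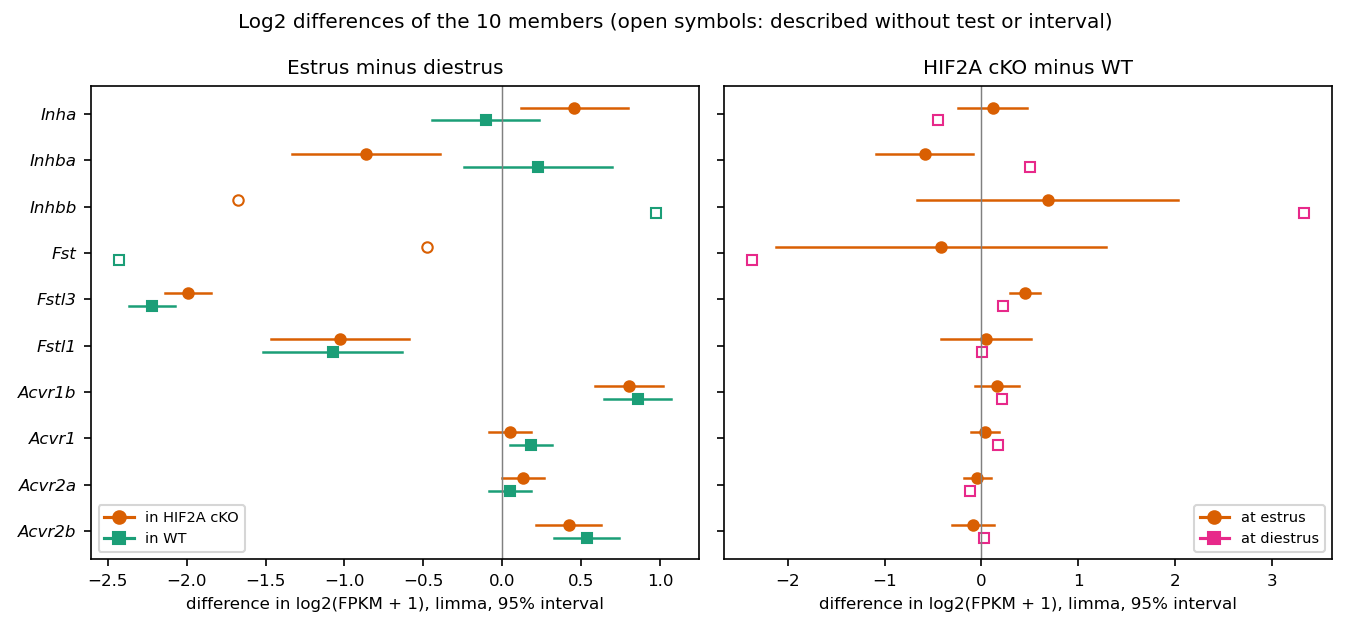
Differences in log2(FPKM + 1) of the 10 genes between stages (left) and genotypes (right), with 95% intervals from limma for tested differences, and open symbols with no interval for those described without a test. Fstl3 lies at -1.99 and -2.22 over the cycle, and Inhbb (3.34) and Fst (-2.37) lie farthest from 0 between the genotypes at diestrus.

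Within each group the levels can be put in order, which FPKM allows because it is per length. Between the stages the order differed for Fstl3, for Acvr1b against Acvr1 and, in WT uteri, for Fst, among others, while Fstl1 led in all 4 groups. At estrus the order in both genotypes began with Fstl1, Inhbb, Acvr1b, Acvr1 and Acvr2a, with no overlap between neighbours. It ended with Inhba (0.728 FPKM in HIF2A cKO, 1.58 in WT) and Fst (0.647 in HIF2A cKO, 1.24 in WT), whose libraries overlapped in both genotypes. At diestrus Fstl3 ranked above all 4 receptors in both genotypes, and Acvr1 ranked above Acvr1b with no overlap. In HIF2A cKO uteri at diestrus Inhbb ranked next to Fstl1, apart from its neighbours, whereas in WT uteri Inhbb, Fst and Fstl3 (means 18.1, 16.1 and 14.7 FPKM) followed Fstl1 with overlapping libraries. Fst, Inha, Inhba and Acvr2b stood last in HIF2A cKO uteri at diestrus and could not be ordered beyond their spread. The rank of Fst in that group rested on the library numbered 3 (9.07 FPKM). Its other libraries (0.365 to 0.448 FPKM) lay below every library of the other members, so that Fst was last there as at estrus.

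The genes whose log2 values were most like those of Inhbb over the 14 libraries, among 10025 genes with a mean of at least 5 FPKM, were Chst11 (Pearson r = 0.970), Ror2 (0.966), Insig1 (0.963), Oxtr (0.937), the oxytocin receptor, and Trabd (0.935). Those most like Fst were Angptl7 (0.975), Tshz2 (0.966), Frmd6 (0.964), Hoxa11os (0.959) and Nme4 (0.954). Oxtr stood at 89.6, 76.3, 21.4 and 33.2 FPKM in HIF2A cKO uteri and 11.0, 19.9, 5.65 and 10.5 in WT uteri at diestrus, so that the library numbered 3 was the lowest in each genotype, as it was for Inhbb in HIF2A cKO. Angptl7 stood at 3.61, 3.91, 98.5 and 4.38 in HIF2A cKO uteri and 31.8, 108, 338 and 54.7 in WT uteri at diestrus, with the library numbered 3 the highest in each genotype. These correlations are descriptions over libraries that share group and replicate number, and the diestrus libraries carry most of the spread.

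Of 40 other genes of the activin pathway 39 were in the table and 26 were abundant enough to test. Among the ligands, Inhbc stood at or near 0 and Inhbe was listed at 0 in all groups. At estrus relative to diestrus, 6 of the 26 rose and 5 fell in HIF2A cKO uteri, and 8 rose and 8 fell in WT uteri, with medians of 0.09 in HIF2A cKO and -0.02 in WT. Over all genes tested, 25.5% rose and 36.5% fell in HIF2A cKO uteri, and 23.0% rose and 34.1% fell in WT uteri. The share of these genes that fell in HIF2A cKO uteri (5 of 26) was below the background, and the other shares lay nearer to it. No test compared these shares. Pcsk5, a proprotein convertase, fell to 4.15 ± 0.0931 FPKM at estrus in HIF2A cKO uteri, against 14.6 ± 9.22 at diestrus (SD, n = 3 and 4; -1.44, SE 0.336, adjusted p = 0.00239 in limma). In WT uteri it fell to 4.49 ± 0.423 FPKM, against 33.5 ± 13.6 at diestrus (-2.58, SE 0.336, adjusted p = 4.65e-05). Its relative Pcsk6 rose in WT uteri (0.85, SE 0.268, adjusted p = 0.0165), at 8.92 ± 0.816 FPKM at estrus and 4.71 ± 1.74 at diestrus. Wfikkn2, a secreted antagonist of the activin relatives myostatin and GDF11, rose in HIF2A cKO uteri (0.90, SE 0.125, adjusted p = 4.81e-05), at 4.40 ± 0.407 FPKM at estrus and 1.90 ± 0.373 at diestrus. It rose in WT uteri too (0.44, SE 0.125, adjusted p = 0.00978), at 4.33 ± 0.342 FPKM at estrus and 2.96 ± 0.568 at diestrus.

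By role, the SMAD transducers and regulators gave 4 that rose and 2 that fell at estrus in HIF2A cKO uteri, and 5 that rose and 3 that fell in WT uteri, of 13 tested. The ubiquitin ligase genes Smurf1 and Smurf2 and the shared transducer Smad4 rose in both genotypes, and the transducer Smad2 and the corepressor Ski fell in both. Smad3 rose in HIF2A cKO uteri (0.45, adjusted p = 0.00926 in limma). Smad7, the inhibitory SMAD, rose in WT uteri (0.35, adjusted p = 0.00506). Of 4 other receptors tested 1 fell in HIF2A cKO uteri and 2 fell in WT uteri, Bambi, a pseudoreceptor that dampens signalling, being among them in both (-0.57 in HIF2A cKO, -0.69 in WT). Of 3 other antagonists 1 rose and 1 fell in HIF2A cKO uteri, and 1 rose and 2 fell in WT uteri. Neither of the 2 other ligands tested passed. Of 4 convertases 1 rose and 1 fell in HIF2A cKO uteri, and 2 rose and 1 fell in WT uteri.

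Between the genotypes at diestrus 3 of the 26 were higher and 3 lower in HIF2A cKO uteri, where 23.9% of all genes were called in either direction. With the replicate number as a block the counts were 5 and 6, and in the diestrus libraries fitted alone they were 0 and 0, so that none of these calls held there. Pcsk5 was lower in HIF2A cKO uteri (-1.24, SE 0.311, adjusted p = 0.0153 in limma), as was Wfikkn2 (-0.45, SE 0.116, adjusted p = 0.0172), although the libraries of the genotypes overlapped for both. Smad7 was higher, at 6.75 ± 0.675 FPKM in HIF2A cKO uteri and 4.89 ± 0.57 in WT uteri (SD, n = 4 each; 0.40, adjusted p = 0.0078), and was chosen for mention after its values were seen. These counts rest on single libraries: without HIF2A cKO diestrus replicate 2 they were 1 and 0, without replicate 3 of that group 6 and 7, and without WT diestrus replicate 4 or HIF2A cKO diestrus replicate 1 only 1 was lower. Between the genotypes at estrus none of the 26 passed in limma (1 at an unadjusted p under 0.05, as were 1053 of all 14278 genes). In the test of whether the cycle change differs between the genotypes none of the 26 passed either, where 0.0350% of all genes were called. At an unadjusted p under 0.05 there were 5 of the 26, and 2511 of all 14278 genes. That test moved with the setting: over all genes 2 were higher and 3 lower, against 232 and 230 with the replicate block, 531 and 650 without HIF2A cKO diestrus replicate 3, 140 and 157 without WT diestrus replicate 2, and 2342 and 2883 with library weights, where 9 of the 26 were higher and 1 lower.

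**Figure D5:**
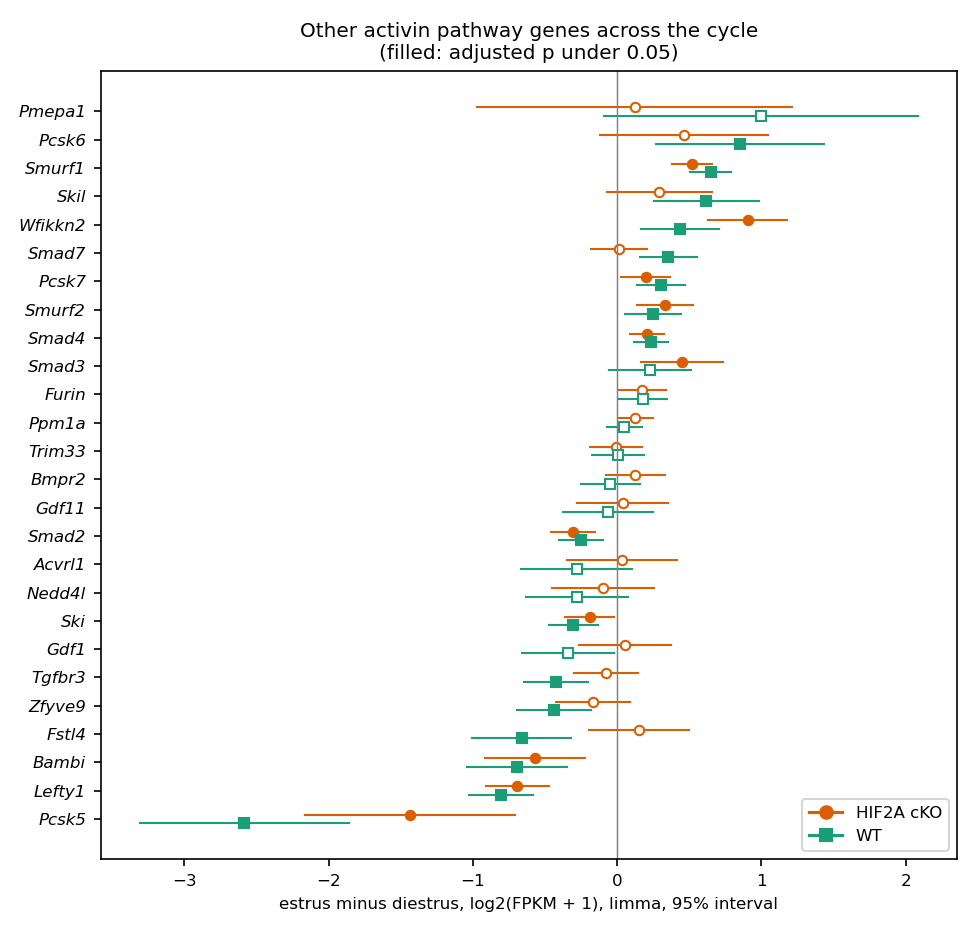
Estrus minus diestrus differences in log2(FPKM + 1) of the 26 other pathway genes tested, with 95% intervals from limma, for HIF2A cKO and WT uteri, filled where the adjusted p was under 0.05. Pcsk5 has the largest fall in both genotypes, at -1.44 and -2.58.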

How the data were processed

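The authors deposited 1 table of FPKM values per gene symbol for 14 libraries, from libraries made with an Illumina TruSeq RNA kit, per the labels. TopHat2 2.0.4, Cufflinks 2.0.2 and the build mm10 are named in the submitters' processing notes, while no source used here gives their options, the annotation or any use of strand. Read counts were not used, so absolute depth is unknown. The steps between low values gave a relative depth for 40 of 91 library pairs, at most 1.71. Whether libraries came from separate animals is not labelled, and p-values reflect only the variation among them, possibly technical.

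The test was limma 3.58.1 (R 4.3.3) on log2(FPKM + 1). A gene entered if 3 or more libraries reached 1 FPKM, unless it was listed at 0 throughout 1 group while averaging 50 FPKM or more elsewhere. This left 14278 genes, all 10 members among them. Every library was in a single model of group means, with a trend in eBayes and Benjamini-Hochberg adjustment at 0.05. The fit was run on simulated data with independent libraries and the same spread in every group. The data differ from this, since libraries varied more at diestrus than at estrus and same-number diestrus libraries deviated together. That run therefore does not show how far the calls here can be relied on. The added 1 shrinks the log2 differences of genes with low FPKM. The members and lists were chosen with earlier results of these data known. Named were all members, Epas1, the 2 largest called changes of other pathway genes per comparison, and the 5 genes most correlated with Inhbb and with Fst. Other pathway genes named by role are examples chosen after their values were seen. Alternatives were another pseudocount, other filters and scalings, the compared libraries alone, weights per library, a block for replicate number, and leaving out each library. Same-number diestrus libraries deviated together (correlations 0.321, 0.115, 0.622 and 0.217), although for number 2 (0.115) a library of another number matched better. This comes from the data and not from the labels. The main fit took no pairing, and the block for replicate number was an alternative only. In the other comparisons same-number libraries did not deviate together. Of the 10 members 7 overlap another annotated gene in GENCODE M21.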

Additional observations from a re-analysis of the deposited data

Results flagged for a closer look

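In groups of 4 libraries, 5 values stood far from the other 3 of their group, measured as the gap to the nearest library over the whole range. The members, Epas1, the ratio of beta subunits to Fst, Pcsk5, Pcsk6 and Wfikkn2 were screened, each in both diestrus groups. Chance flags about 1 in 20 such groups if values are normally spread and independent. FPKM values are often skewed, and the screened genes share libraries. Fst had its highest value in HIF2A cKO diestrus replicate 3 (9.07 FPKM, gap 0.990 of the range) and in WT diestrus replicate 3 (43.2 FPKM, 0.848). Fstl1 had its highest value in HIF2A cKO diestrus replicate 3 as well (347.3 FPKM, 0.859), and Epas1 in WT diestrus replicate 3 (43.5 FPKM, 0.874). Acvr2a had its highest value in WT diestrus replicate 4 (8.58 FPKM, 0.834). Thus 4 of the 5 values came from the diestrus libraries numbered 3.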

How the results depend on the processing

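Over the alternatives, 636 tested values of the 10 genes kept their side of the threshold, 24 lost a call and 7 gained one, and none reversed a call. The 361 values described without a test have no call. The untested Fst difference over the cycle in HIF2A cKO uteri changed sign without HIF2A cKO diestrus replicate 3 (0.24), with library weights (0.15) and with a replicate block (0.20). Fstl3 and Fstl1 over the cycle and Acvr1b and Acvr2b over the cycle kept their calls in both genotypes under every setting in which they were tested. The higher call of Fstl3 at estrus in HIF2A cKO uteri (adjusted p from 0.000816 to 0.356 over the settings) was also lost with a 5 FPKM filter (0.0723), with a replicate block (0.0583) and without the 2 libraries with the most Rn45s (0.356), so that the count of members higher was 0 in each of these, 2 in the estrus libraries alone and 0 to 1 with each library left out. With library weights 1 member (Inhba) was lower and 2 other pathway genes were higher at estrus, where 756 of all genes were higher and 575 lower. A 5 FPKM filter, which tests fewer genes, left 1 member higher over the cycle in HIF2A cKO uteri, and 3 other pathway genes lower in HIF2A cKO and 5 lower in WT uteri. With each library left out, the members higher over the cycle were 2 to 3 in each genotype.

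At diestrus the other pathway genes higher and lower in HIF2A cKO uteri numbered 0 and 0 in the diestrus libraries alone, 6 and 11 with library weights, 5 and 6 with the block, 6 and 5 without both libraries numbered 3, and 1 to 6 and 0 to 7 with each library left out. In the interaction, 9 were higher and 1 lower with library weights, 1 higher with the block, also in its libraries alone, 2 higher without the libraries numbered 3, and 0 to 1 with each library left out. The counts over all genes moved likewise: at diestrus 1976 were higher and 1434 lower, against 245 and 156 in the diestrus libraries alone and 1198 and 836 there with the block. With library weights the diestrus counts over all genes were 4324 and 3561. At estrus 10 were higher and 5 lower, against 190 and 142 in the estrus libraries alone. The cause was not tested. Same-number libraries of the estrus and cycle comparisons correlated at -0.135 to 0.096, so the block there rests on a shared number only.

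The alternatives without the libraries numbered 3, without the 2 with the most Rn45s, and with the block in the compared libraries alone were chosen after the data were seen. Genes of low FPKM, Inhba and Fst at estrus among them, are the least precise, and no counting error can be given without reads.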
